A study of Mus musculus with 4 samples.

Results

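The genes described here are 10 mouse genes of early granulocyte differentiation, chosen by name and matched to array probe sets through the platform annotation. They are Mpo, Elane, Prtn3, Ctsg, Fcnb, Nkg7, Serpinb1a, Dmkn, Igfbp4 and Calr, out of 19938 genes that the arrays measured with a probe set of 1 symbol. All 10 had exactly 1 such probe set. RNA came from colonies grown in methylcellulose with the cytokines GM-CSF, IL-6, IL-3 and SCF and with fetal bovine serum. The 4 groups, all of C57BL/6 background, were LT-HSC-derived cells transduced with CreER, LT-HSC-derived cells with mock, ST-HSC-derived cells with CreER and ST-HSC-derived cells with mock. LT-HSC and ST-HSC stand for haematopoietic stem cells with long-term and with short-term repopulating activity, CreER is a ligand-dependent Cre recombinase, and the study's title refers to conditional expression of the leukaemia fusion MLL-ENL. The sources used here do not give the vector, its promoter, any ligand treatment, or whether the mock cells carry the same conditional allele, so CreER against mock compares transductions. Each group held 1 Affymetrix array, so no difference between 2 arrays has a replicate check.

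Promyelocytes are the granulocyte precursors that fill the primary, or azurophil, granules. Those granules hold myeloperoxidase, which makes hypochlorous acid, and serine proteases that digest engulfed microbes and matrix. Transcription of these genes is early and brief: it peaks at the promyelocyte stage and is shut off as secondary granule genes come on. The transcription factors C/EBP, PU.1, MYB and RUNX1 are known activators of several of them. Among the 10, Serpinb1a, Dmkn, Igfbp4 and Calr do not encode granule proteins.

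The stretches of DNA around the transcription starts of 5 of the genes are shown because these granule protein genes differed in how far they varied among the arrays. Of the 5, Fcnb varied most, then Prtn3, Elane, Mpo and Ctsg. Each runs 5′ to 3′ on the gene's own strand, with 250 bases before and 50 after the start, from RefSeq on build GRCm38.p6. Fcnb lies at chr2:28084829-28085128 on the minus strand, Prtn3 at chr10:79879417-79879716 on the plus strand, Elane at chr10:79886062-79886361 on the plus strand, Mpo at chr11:87793534-87793833 on the plus strand and Ctsg at chr14:56102525-56102824 on the minus strand. Capitals mark matches, on either strand, to TTGCNNAA (C/EBP), GAGGAA (PU.1), TAACNG (MYB) or TGTGGT (RUNX).
Fcnb: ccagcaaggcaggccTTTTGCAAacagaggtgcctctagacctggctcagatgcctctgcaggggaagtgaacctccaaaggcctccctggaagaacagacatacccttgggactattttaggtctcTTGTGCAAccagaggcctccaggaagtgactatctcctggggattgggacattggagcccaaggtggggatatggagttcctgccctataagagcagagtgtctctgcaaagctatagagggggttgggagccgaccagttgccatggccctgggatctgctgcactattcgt
Prtn3: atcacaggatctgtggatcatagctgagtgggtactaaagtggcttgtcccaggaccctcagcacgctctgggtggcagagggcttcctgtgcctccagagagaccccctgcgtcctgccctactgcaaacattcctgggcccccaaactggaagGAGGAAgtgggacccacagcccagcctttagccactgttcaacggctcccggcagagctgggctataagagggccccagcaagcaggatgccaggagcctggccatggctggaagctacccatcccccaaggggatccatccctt
Elane: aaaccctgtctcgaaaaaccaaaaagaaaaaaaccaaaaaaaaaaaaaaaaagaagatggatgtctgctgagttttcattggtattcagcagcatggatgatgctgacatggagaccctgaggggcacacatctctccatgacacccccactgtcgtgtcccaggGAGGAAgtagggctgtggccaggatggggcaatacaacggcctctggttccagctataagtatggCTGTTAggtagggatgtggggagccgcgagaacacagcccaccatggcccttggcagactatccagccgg
Mpo: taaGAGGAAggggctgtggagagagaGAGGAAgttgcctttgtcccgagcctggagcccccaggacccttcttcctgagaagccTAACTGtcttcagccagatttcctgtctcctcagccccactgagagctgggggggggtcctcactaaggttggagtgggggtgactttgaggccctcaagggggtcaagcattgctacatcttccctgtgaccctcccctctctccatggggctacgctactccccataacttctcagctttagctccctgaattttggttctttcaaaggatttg
Ctsg: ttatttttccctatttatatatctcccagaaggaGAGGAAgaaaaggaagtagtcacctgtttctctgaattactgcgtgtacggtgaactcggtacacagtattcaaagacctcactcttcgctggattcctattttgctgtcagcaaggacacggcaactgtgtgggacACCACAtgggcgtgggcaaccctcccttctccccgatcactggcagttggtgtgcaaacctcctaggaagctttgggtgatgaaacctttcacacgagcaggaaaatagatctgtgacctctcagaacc

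The Fcnb window held 2 C/EBP matches, whose first bases lay at -235 and -123 relative to the start, and no match to the other motifs. Of 32544 different windows of this length in the RefSeq table, 10.8% held a C/EBP match. All 4 granule enzyme genes held a GAGGAA match, at -95 in Prtn3, -85 in Elane, -247 and -224 in Mpo, and -216 in Ctsg, a motif found in 28.1% of all windows. Elane and Mpo also held a TAACNG match (23.4% of all windows) and Ctsg a TGTGGT match (16.7%). Matches of different motifs did not overlap in these 5 windows. Among the other genes with a window, Dmkn held a TTGCNNAA match in each of its 3 windows and a TAACNG match in 2, but those 2 windows start 2 bases apart and share their matches. Igfbp4 held 1 TAACNG match, Nkg7 1 TGTGGT match, and Calr none of the motifs. A match describes these letters only, and binding was not measured.

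The array labelled LT-HSC mock carried the least transcript of 6 of the 10 genes. The other 3 arrays lay within 0.16 of each other for Elane, Prtn3 and Dmkn. They spanned 0.22 for Mpo, 0.43 for Nkg7 and 0.74 for Fcnb. Of all 10411 genes above the signal floor on at least 1 array, 28.1% were lowest on LT-HSC mock. The signal floor, the median of an array's probe sets that carry 1 symbol, lay between 8.07 and 8.13 on the log2 scale. All 10 genes stood above it on all 4 arrays. The array labelled LT-HSC CreER was the highest for 7 of the 10 genes, against 20.8% of all genes past the floor. It was also the highest for 7 of 9 cell cycle genes and 5 of 6 stem and progenitor markers described below. For other primary granule genes it was the highest in 3 of 16. The spread among the 4 arrays had a median of 0.57 log2 units over the 10 genes and of 0.30 over all genes past the floor. The counts for the 10 genes describe a list of genes known to vary here from earlier work on the same arrays. None of these counts was tested.

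Fcnb encodes ficolin B, a lectin that binds microbial sugars and is made by immature myeloid cells in mice. Its log2 level was 12.08 on LT-HSC CreER and 10.43 on LT-HSC mock, and 12.82 on ST-HSC CreER and 12.82 on ST-HSC mock. LT-HSC mock stood far below the rest, LT-HSC CreER lay between, and the ST-HSC-derived arrays were equal to 2 decimals. With CreER the level was 3.14-fold that with mock in LT-HSC-derived cells, and only 1 of the other genes past the floor had a larger positive difference. With mock, LT-HSC-derived cells had 0.191 times the level of ST-HSC-derived cells, the lowest ratio of all 10208 genes in that comparison. With CreER, LT-HSC-derived cells still had 0.598 times the level of ST-HSC-derived cells.

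The 3 neutrophil serine protease genes and the peroxidase gene did not vary alike. Prtn3 encodes proteinase 3, which cleaves matrix proteins and cytokines. It stood at 13.47 on LT-HSC CreER and 12.58 on LT-HSC mock, and at 13.45 on ST-HSC CreER and 13.34 on ST-HSC mock, so that LT-HSC mock alone was low and the other 3 lay within 0.13. Elane encodes neutrophil elastase, the best known of these proteases. It stood at 13.97 on LT-HSC CreER and 13.47 on LT-HSC mock, and at 13.87 on ST-HSC CreER and 13.92 on ST-HSC mock, again with LT-HSC mock below the other 3, which lay within 0.10. Mpo, the myeloperoxidase gene, stood at 13.71 on LT-HSC CreER and 13.37 on LT-HSC mock, and at 13.50 on ST-HSC CreER and 13.55 on ST-HSC mock. LT-HSC mock was lowest here too, by a smaller step. Ctsg encodes cathepsin G, a protease with chymotrypsin-like activity. It stood at 13.44 on LT-HSC CreER and 13.24 on LT-HSC mock, and at 13.17 on ST-HSC CreER and 13.23 on ST-HSC mock. For Ctsg only LT-HSC CreER stood off, upwards, and LT-HSC mock was level with the ST-HSC-derived arrays.

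In LT-HSC-derived cells the ratio of CreER to mock was 1.85 for Prtn3, 1.42 for Elane, 1.265 for Mpo and 1.15 for Ctsg. In ST-HSC-derived cells the same ratios were 1.08 for Prtn3, 0.965 for Elane, 0.962 for Mpo and 0.956 for Ctsg. The largest of these differences in LT-HSC-derived cells, that of Prtn3, was exceeded by 16 of 10172 genes, and that of Ctsg by 1476.

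**Figure D1:**
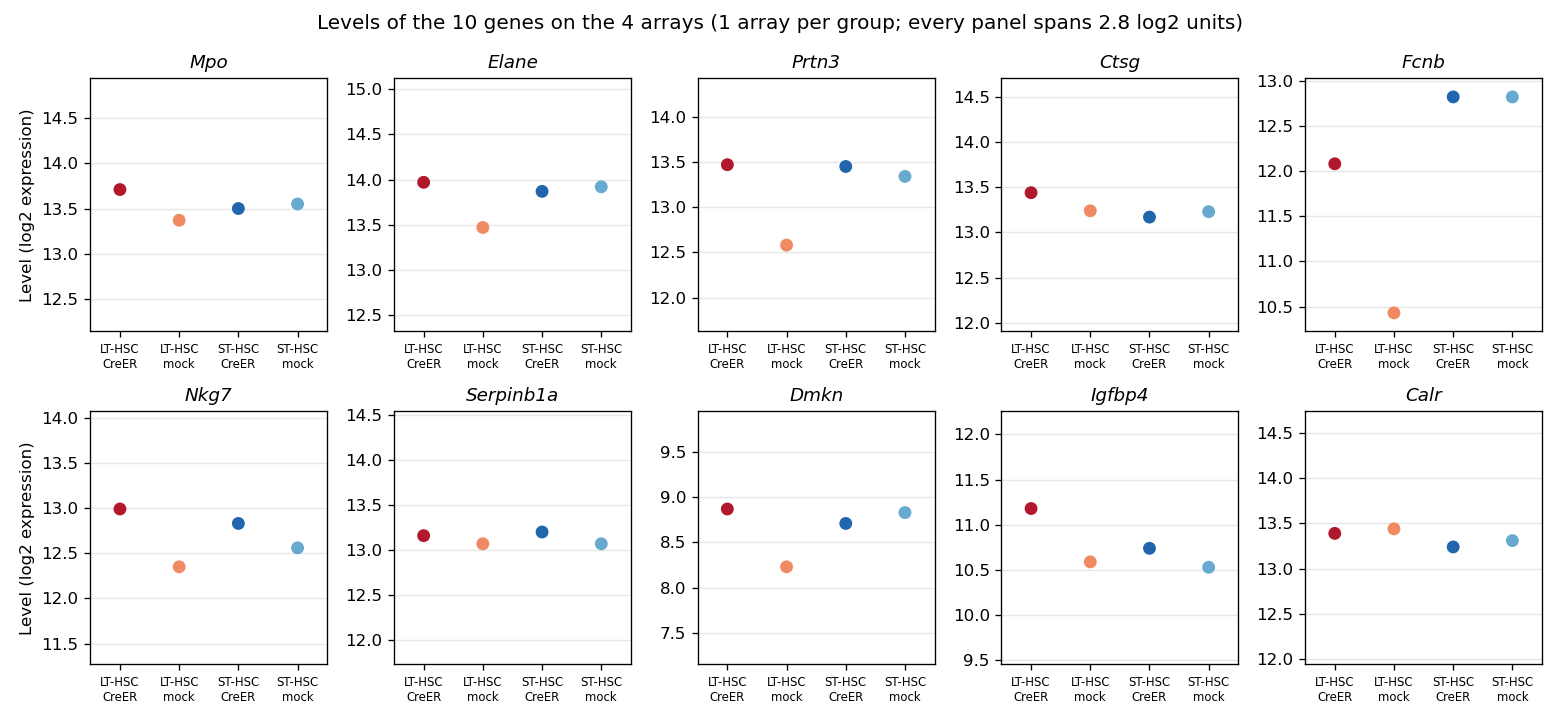
Log2 expression of each of the 10 genes on the 4 arrays, 1 point per array and no replicates; the vertical axes differ in position but all span 2.8 log2 units. LT-HSC mock is the lowest point for Mpo, Elane, Prtn3, Fcnb, Nkg7 and Dmkn, while Serpinb1a and Calr span 0.13 and 0.19.

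Prtn3 and Elane are neighbours on chromosome 10. The gene on the other side of Prtn3, Plppr3, which encodes a brain-enriched membrane protein, and the neighbours named below were singled out after their values were seen. Plppr3 stood at 10.47 on LT-HSC CreER and 9.92 on LT-HSC mock, and at 10.26 on ST-HSC CreER and 10.35 on ST-HSC mock, so it too was lowest on LT-HSC mock. The next gene beyond it, Ptbp1, an RNA-binding protein gene, had a difference of 0.12 for LT-HSC CreER against LT-HSC mock. Tspoap1, directly before Mpo, stood at 8.88 on LT-HSC CreER and 8.29 on LT-HSC mock, and at 8.56 on ST-HSC CreER and 8.51 on ST-HSC mock, also lowest on LT-HSC mock. Siglecg, a sialic acid receptor gene and the third gene before Nkg7, stood at 9.04 on LT-HSC CreER and 8.43 on LT-HSC mock, and at 9.29 on ST-HSC CreER and 9.09 on ST-HSC mock, with the same array lowest. The neighbours Epx and Mcpt8 had another pattern. Epx, the eosinophil peroxidase gene and the third gene after Mpo on chromosome 11, was 13.06 on LT-HSC CreER and 12.81 on LT-HSC mock, and 12.25 on ST-HSC CreER and 10.89 on ST-HSC mock. Mcpt8, a basophil protease gene beside Ctsg on chromosome 14, was 13.20 on LT-HSC CreER and 13.33 on LT-HSC mock, and 11.49 on ST-HSC CreER and 11.28 on ST-HSC mock. Those eosinophil and basophil genes were higher on both LT-HSC-derived arrays. Beside Fcnb, Olfm1 had -0.74 for LT-HSC CreER against LT-HSC mock and Rxra, a nuclear receptor gene, -0.69, opposite in sign to Fcnb itself. Within 3 places of a member of the list, 27 other protein-coding genes were measured and past the floor, and 12 were lowest on LT-HSC mock. The share over all genes past the floor was 28.1%. For LT-HSC CreER against LT-HSC mock, 19 of the 27 were above 0, as were 4652 of all 10411 genes past the floor. The median of the 27 was 0.12, against -0.03 over all genes past the floor. These counts were not tested.

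Serpinb1a encodes a serpin of the cytosol that blocks elastase, proteinase 3 and cathepsin G and protects granulocytes from their own proteases. It stood at 13.16 on LT-HSC CreER and 13.07 on LT-HSC mock, and at 13.20 on ST-HSC CreER and 13.07 on ST-HSC mock. Its span of 0.13 was the smallest of the 10 genes, so the inhibitor differed less among the arrays than any of the 3 proteases. The related Serpinb1b and Serpinb1c stood under the signal floor on every array. Calr encodes calreticulin, a chaperone of the endoplasmic reticulum that helps the myeloperoxidase precursor fold. It stood at 13.39 on LT-HSC CreER and 13.44 on LT-HSC mock, and at 13.24 on ST-HSC CreER and 13.31 on ST-HSC mock. Calr was the one gene of the 10 whose level on LT-HSC CreER was not above that on LT-HSC mock.

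Nkg7 encodes a membrane protein of cytotoxic granules in T and NK cells and is also transcribed in granulocyte progenitors. It stood at 12.99 on LT-HSC CreER and 12.35 on LT-HSC mock, and at 12.83 on ST-HSC CreER and 12.56 on ST-HSC mock. It was the only gene of the 10 with a difference over 0.25 between CreER and mock in ST-HSC-derived cells, at 0.27. All 10 T and NK cell marker genes, among them Cd3e, Ncr1 and Prf1, stood under the signal floor on every array. Dmkn encodes dermokine, a secreted protein known from the epidermis. It stood at 8.87 on LT-HSC CreER and 8.23 on LT-HSC mock, and at 8.71 on ST-HSC CreER and 8.83 on ST-HSC mock, with LT-HSC mock just above the floor, so the size of its differences is uncertain. Of 7 keratinocyte markers 6 were under the floor everywhere, including Krt5, Krt14 and Krt10. The remaining marker, Cdh1, was well above it, at 11.27 on LT-HSC CreER and 11.78 on LT-HSC mock. On ST-HSC CreER and ST-HSC mock Cdh1 stood at 9.94 and 9.67. Igfbp4 encodes a secreted protein that binds insulin-like growth factors and limits their access to receptors. It stood at 11.18 on LT-HSC CreER and 10.59 on LT-HSC mock, and at 10.74 on ST-HSC CreER and 10.53 on ST-HSC mock, so LT-HSC CreER alone was high. Of 7 fibroblast and stromal markers 5 passed the floor, and they had a mean log2 level of 9.35 on LT-HSC CreER and 9.37 on LT-HSC mock, and of 8.97 on ST-HSC CreER and 8.94 on ST-HSC mock. With mock, their median for LT-HSC- against ST-HSC-derived cells was -0.04, and 2 were above 0, Thy1 at 1.85 and Acta2 at 0.52. The collagen genes Col1a1, Col1a2 and Col3a1 were close to the floor, at 8.10 to 8.70.

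LT-HSC CreER against LT-HSC mock was the comparison in which the 10 genes stood highest as a list. Their median log2 difference was 0.55, against -0.03 over all 10172 genes past the floor, and 9 of 10 were above 0. At least 1.5-fold higher were 5 of the 10, namely Fcnb, Prtn3, Dmkn, Nkg7 and Igfbp4, where 1.02% of all genes past the floor were that much higher. At least 2-fold apart was 1 of the 10, Fcnb, where 0.875% of all genes were 2-fold apart. Igfbp4, at a ratio of 1.505, lay just past the lower threshold, and Elane just short of it.

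The same comparison in ST-HSC-derived cells gave no such difference. The median was -0.02, against -0.03 over all 10047 genes past the floor, 5 of 10 genes were above 0, and the range was -0.12 for Dmkn to 0.27 for Nkg7. At 1.5-fold 0 of the 10 differed in either direction, against 1.99% of all genes, and at 2-fold 0 of the 10, against 0.518%. The CreER difference was larger in LT-HSC- than in ST-HSC-derived cells for 9 of the 10 genes, the exception being Serpinb1a, and for 48.9% of all genes past the floor. Among the lists described below, it was also larger for all 9 cell cycle genes and 5 of 6 stem and progenitor markers. That held for 10 of 16 other primary granule genes and for 4 of 12 secondary and tertiary granule genes. With 1 array per group this difference of differences is the residual of the fit below and cannot be tested.

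LT-HSC- against ST-HSC-derived cells shares its arrays with both comparisons above. With mock, the median over the 10 genes was -0.19, against -0.03 over all genes past the floor. At least 1.5-fold lower in LT-HSC-derived cells were 3 of the 10, namely Fcnb (-2.39), Prtn3 (-0.76) and Dmkn (-0.60), against 2.62% of all genes, and Fcnb alone was 2-fold apart, against 3.12%. With CreER the median was 0.15, against -0.02 over all genes. There Fcnb (-0.74) was the 1 gene of the 10 at least 1.5-fold lower, against 3.22% of all genes, and 0 of the 10 were 2-fold apart, against 1.94%. Prtn3 (0.02), Elane (0.10) and Dmkn (0.16), which were lower in LT-HSC-derived cells with mock, lay between 0 and 0.2 with CreER. Igfbp4 (0.43) was the furthest above 0.

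**Figure D2:**
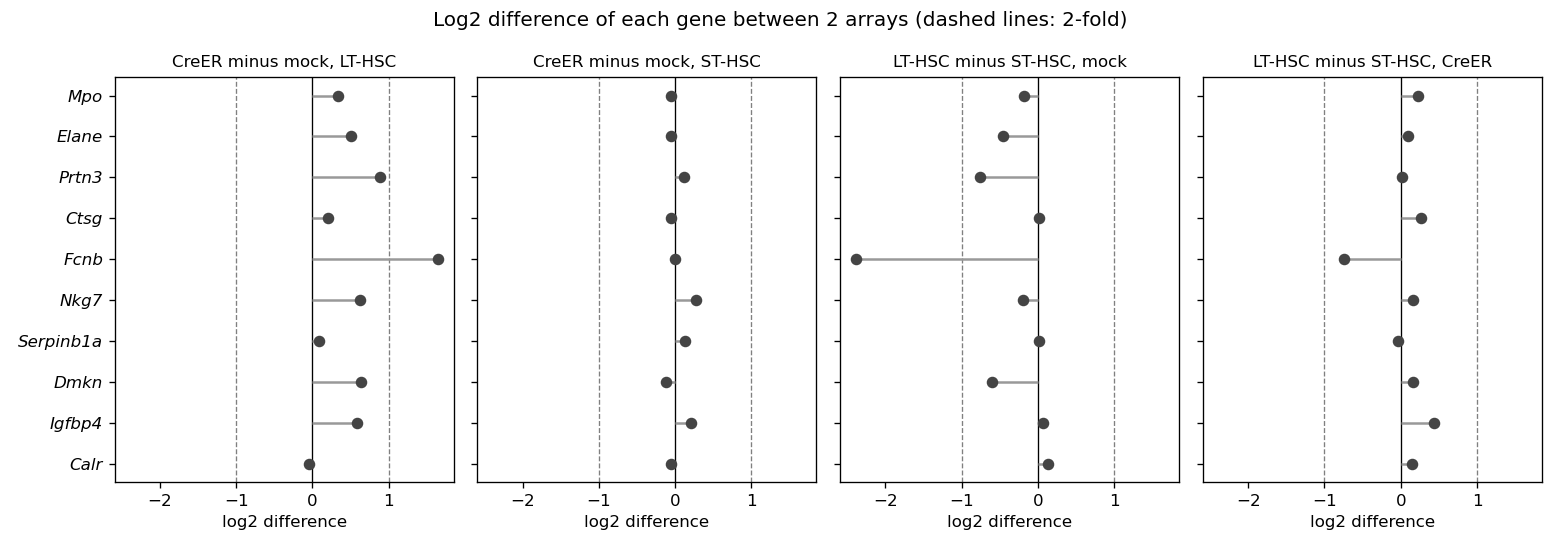
Log2 difference between 2 arrays for each of the 10 genes in the 4 pairwise comparisons, with dashed lines at 2-fold; each point rests on 1 array per group. Differences reach 1.65 (Fcnb) for LT-HSC CreER against LT-HSC mock and -2.39 (Fcnb) for LT-HSC- against ST-HSC-derived cells with mock, and lie between -0.12 and 0.27 for ST-HSC CreER against ST-HSC mock.

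An additive fit of population and transduction to all 4 arrays by limma called none of the 10 genes. For CreER against mock, 0% of 10411 genes had a limma p under 0.05 after Benjamini-Hochberg adjustment, and 1048 had an unadjusted p under 0.05, among them 3 of the 10 genes. Those were Nkg7 (log2 effect 0.45 ± 0.12 SE, limma adjusted p = 0.376), Igfbp4 (0.40 ± 0.12, adjusted p = 0.407) and Prtn3 (0.50 ± 0.19, adjusted p = 0.482). All 3 were higher with CreER in both populations. Fcnb had a CreER effect of 0.83 ± 0.37 with a limma adjusted p of 0.53. For LT-HSC- against ST-HSC-derived cells, 6.27% of genes passed in limma (394 up and 259 down, or 325 up and 339 down with each array centred on its median), and Fcnb came nearest among the 10, at -1.56 ± 0.37 with an adjusted p of 0.0751. Fcnb was lower in LT-HSC-derived cells with both transductions. The fit assumes a CreER effect common to both populations, whereas that of Fcnb was 1.65 in LT-HSC- and 0.0 in ST-HSC-derived cells. Its 1 residual degree of freedom per gene is this inequality of the effects and not a spread between replicate arrays. The error rests largely on the spread shared by all genes. Nothing in the labels says that the arrays came from separate animals, so the p-values cannot be read as measuring a spread between animals.

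The genes most like Fcnb over the 4 arrays, by Euclidean distance between levels centred on each gene's mean, were Gal, a neuropeptide gene (distance 0.55 log2 units), the histone gene H3c15 (0.58), the organic anion transporter gene Slco4c1 (0.59), the acute-phase protein gene Orm1 (0.59) and the B cell survival factor gene Tnfsf13b (0.69), out of 10045 genes compared. Gal stood at 9.24 on LT-HSC CreER and 8.06 on LT-HSC mock, and at 10.50 on ST-HSC CreER and 9.88 on ST-HSC mock. Orm1 stood at 10.05 on LT-HSC CreER and 8.75 on LT-HSC mock, and at 11.31 on ST-HSC CreER and 10.55 on ST-HSC mock. Unlike Fcnb, both were also higher with CreER than with mock in ST-HSC-derived cells. Fcnb was the only gene of the 10 with a span of at least 1 log2 unit, so the others were not matched in this way.

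Other primary granule genes were mixed. Of 18 listed, 17 were measured and 16 passed the floor. For LT-HSC CreER against LT-HSC mock their median was -0.02, with 8 above 0. At least 1.5-fold higher were 2 of the 16, where 1.02% of all genes past the floor were that much higher. Those 2 were Prss57, which encodes the neutrophil serine protease NSP4, and Ms4a3, a membrane protein gene of granulocyte and monocyte progenitors. Prss57 stood at 10.47 on LT-HSC CreER and 9.82 on LT-HSC mock, and at 10.58 on ST-HSC CreER and 10.53 on ST-HSC mock. Ms4a3 stood at 13.16 on LT-HSC CreER and 12.55 on LT-HSC mock, and at 13.30 on ST-HSC CreER and 13.29 on ST-HSC mock, so both were low on LT-HSC mock as Prtn3 was. Hp, with a difference of 0.54, stood at 12.57 on LT-HSC CreER and 12.03 on LT-HSC mock. It stood at 12.30 on ST-HSC CreER and 12.40 on ST-HSC mock, so it too was lowest on LT-HSC mock. Of the 16 genes, 6 (37.5%) were lowest on that array, against 28.1% of all genes past the floor. The list's differences for LT-HSC CreER against LT-HSC mock reached down to -0.42, for the lysozyme gene Lyz1. Ctsc, which activates the serine proteases, had -0.16, and Srgn, the proteoglycan that holds them in granules, 0.00. Rab27a, a GTPase of granule release, had 0.30 and Cd63, a granule membrane protein, -0.15. In LT-HSC- against ST-HSC-derived cells with mock the list's median was -0.18. Slpi, a secreted inhibitor of elastase, was alone in being 2-fold apart, at 1.18, against 3.12% of all genes past the floor. Slpi and Cst7 were also counted among the protease inhibitors below. In ST-HSC-derived cells the CreER against mock median was 0.00, and none was 1.5-fold apart, against 1.99% of all genes past the floor.

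Of the 13 listed transcription factors of early granulocyte and monocyte development, 9 were above 0 for LT-HSC CreER against LT-HSC mock. Their median was 0.12, against -0.03 over all genes past the floor. Cebpd (0.72) was the 1 at least 1.5-fold higher, and Klf4, a factor of monocytes (-0.96), the 1 at least 1.5-fold lower. Of all 10172 genes past the floor, 104 were that much higher and 313 that much lower. Myb stood at 11.75 on LT-HSC CreER and 11.24 on LT-HSC mock, and at 11.26 on ST-HSC CreER and 11.27 on ST-HSC mock, so for Myb LT-HSC CreER was high and LT-HSC mock level with the ST-HSC-derived arrays. Gfi1, a repressor needed for granulocyte maturation, stood at 11.01 on LT-HSC CreER and 10.61 on LT-HSC mock, and at 11.05 on ST-HSC CreER and 11.10 on ST-HSC mock. Cebpa had 0.32 for LT-HSC CreER against LT-HSC mock, Cebpe 0.23, Spi1, which encodes PU.1, -0.06 and Runx1 0.02. In ST-HSC-derived cells the median of the 13 was -0.01.

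The chaperones that work beside calreticulin were, by contrast with the granule genes, never lowest on LT-HSC mock. In LT-HSC-derived cells 14 of 17 endoplasmic reticulum folding genes were below 0 with CreER. None was 1.5-fold apart, where 417 of all 10172 genes past the floor were. Their median was -0.18, against -0.03 over all genes past the floor. The furthest were Pdia4 (-0.48), Creld2 (-0.44) and Hspa5 (-0.38), a disulfide isomerase gene, a stress-induced folding factor gene and the BiP chaperone gene. With mock, 16 of 17 were higher in LT-HSC- than in ST-HSC-derived cells, with a median of 0.23, against -0.03 over all genes past the floor. Calnexin (Canx), the membrane-bound relative of calreticulin, had a difference of 0.02 for LT-HSC CreER against LT-HSC mock.

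For LT-HSC CreER against LT-HSC mock, 8 of the 9 protease inhibitors other than Serpinb1a that passed the floor were below 0. Their median was -0.30, against -0.03 over all genes past the floor. Cst3 (-0.03), Stfa2 (-0.05) and Cst7 (-0.07) were close to 0. Serpinb2 and Serpinb10, intracellular serpins, were both at -0.84, and Stfa3, a cystatin of neutrophils, was at 0.69. In the insulin-like growth factor axis 7 of 14 genes passed the floor, with a median of -0.42 in that comparison. Igf1 was at -0.94 and the receptor gene Igf1r at 0.38, and Pappa, the protease that cleaves Igfbp4, was under the floor on every array. Igfbp7 stood at 12.18 on LT-HSC CreER and 12.60 on LT-HSC mock, and at 9.32 on ST-HSC CreER and 9.32 on ST-HSC mock, a pattern that Igfbp4 did not show.

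The arrays also differed in markers of other cells and stages, and in bulk RNA fewer cells of a type and less RNA per cell cannot be told apart. The 9 mast cell and basophil markers past the floor, of 11 measured, had a mean log2 level of 11.08 on LT-HSC CreER and 11.52 on LT-HSC mock, and of 9.70 on ST-HSC CreER and 9.16 on ST-HSC mock. The mast cell protease genes Mcpt4 and Cma1 were under the floor on all 4. Tpsb2, another such gene, stood just above it at 8.36 on LT-HSC CreER and 8.73 on LT-HSC mock. It was below the floor on ST-HSC CreER (8.04) and ST-HSC mock (7.69). The 5 eosinophil markers past the floor had means of 11.65 on LT-HSC CreER and 11.48 on LT-HSC mock, and of 11.19 on ST-HSC CreER and 10.18 on ST-HSC mock. All 4 megakaryocyte markers measured were at least 2-fold higher in LT-HSC-derived cells with both transductions. Among all genes past the floor, 278 of 10208 were that much higher with mock and 142 of 10189 with CreER. The 9 monocyte and macrophage markers had means of 10.72 on LT-HSC CreER and 11.30 on LT-HSC mock, and of 11.09 on ST-HSC CreER and 11.54 on ST-HSC mock. The 12 secondary and tertiary granule genes had means of 12.72 on LT-HSC CreER and 12.46 on LT-HSC mock, and of 13.14 on ST-HSC CreER and 12.55 on ST-HSC mock, and 7 of them were lowest on LT-HSC mock. The 6 late neutrophil markers measured had means of 11.59 on LT-HSC CreER and 11.57 on LT-HSC mock, and of 11.55 on ST-HSC CreER and 10.75 on ST-HSC mock. All 9 cell cycle genes were lowest on LT-HSC mock, with means of 11.93 on LT-HSC CreER and 11.60 on LT-HSC mock, and of 11.85 on ST-HSC CreER and 11.83 on ST-HSC mock. The 6 stem and progenitor markers past the floor were all higher on LT-HSC CreER than on LT-HSC mock, with a median of 0.47. Cd34 was at 1.13 and Meis1 at 0.74, but Kit and Procr were at only 0.06 each. Hlf (0.20) lay near the floor on all 4 arrays. Cd27 (1.13) passed the floor on LT-HSC CreER alone, at 8.20, so its place among the 6 depends on its high level there. The part of these cell types and stages in the levels of the 10 genes was not tested.

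**Figure D3:**
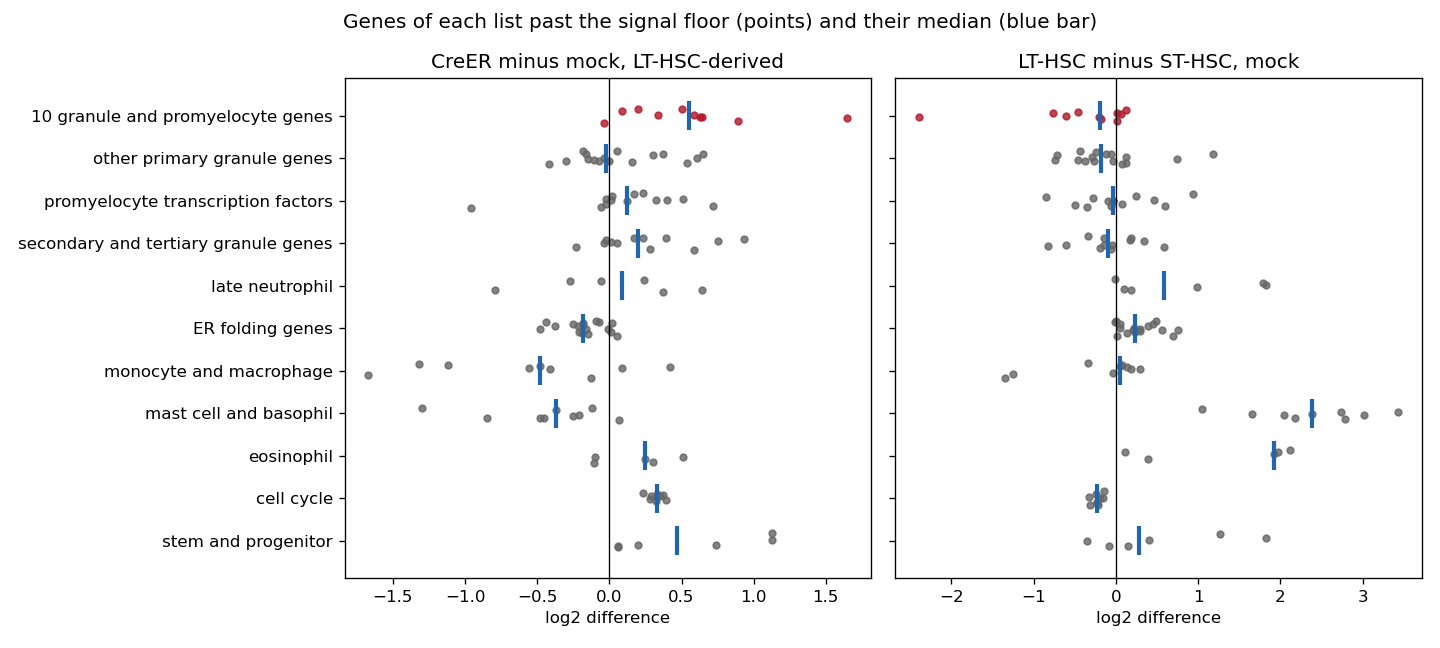
Log2 differences of the genes of each list that passed the signal floor (points) with the list's median (blue bar), for LT-HSC CreER against LT-HSC mock on the left and LT-HSC- against ST-HSC-derived cells with mock on the right. The 10 granule and promyelocyte genes have medians of 0.55 and -0.19, the mast cell and basophil markers -0.37 and 2.39, and the cell cycle genes 0.33 and -0.23; both panels share the LT-HSC mock array.

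Among markers of cells that the colonies might hold, 1 of 4 B cell markers and 1 of 3 erythroid markers measured passed the floor. The 4 dendritic cell markers past the floor, of 7, were Itgax, Cd74, H2-Aa and H2-Ab1. All 4 were lower on LT-HSC CreER than on LT-HSC mock, with a median of -0.79. The remaining markers, Flt3 (0.88), Zbtb46 (0.10) and Siglech (0.17), went the other way but were under the floor on every array. For the labels themselves, Kmt2a (MLL) stood at 10.63 on LT-HSC CreER and 10.49 on LT-HSC mock, and at 10.53 on ST-HSC CreER and 10.43 on ST-HSC mock, and Mllt1 (ENL) stood at 10.76 on LT-HSC CreER and 10.59 on LT-HSC mock, and at 10.52 on ST-HSC CreER and 10.57 on ST-HSC mock. Neither level checks for the fusion. Esr1, the gene whose ligand-binding part CreER carries, stood at 10.48 on LT-HSC CreER and 9.69 on LT-HSC mock, and at 10.63 on ST-HSC CreER and 9.56 on ST-HSC mock, and the sources used here do not give the sequence its probe set reads. For 7 of the 10 genes the signal lay above the 97th percentile of its array on all 4 arrays, and whether differences are compressed at such signals was not tested.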

How the data were processed

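Total RNA of 4 samples was amplified, biotin-labelled and hybridised to 1 array each, per the labels. The deposited table holds log2 expression per probe set. That unit was read from its range of 2.21 to 14.82. The submitters' processing notes name Affymetrix Expression Console. The sources used here give no version, summarisation or normalization. Columns have medians of 7.75 to 7.82, so they were taken as normalized and used as deposited.

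Of 35556 probe sets, 21789 had 1 gene symbol, 1621 several and 12146 none in the annotation. Where a gene had several probe sets (999 genes), the one with the highest mean represented it. RefSeq's gene table (GRCm38.p6) held the gene numbers of 21698 probe sets. No array coordinates are given, because the array's build is not named.

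A gene counted as different at 1.5-fold or 2-fold, with its higher array above the signal floor. The additive model (population, transduction) was fitted with limma 3.58.1 in R 4.3.3 over 10411 genes with Benjamini-Hochberg adjustment. It was tested on simulated data with CreER effects that were equal in both populations. There it found the changed genes but made more false calls than its adjusted p of 0.05 allows for. Whether it finds CreER effects as small as those of the 10 genes, at most 0.83 log2 units for Fcnb, was not tested. Nor was its handling of effects that differ between the populations. Promoter windows came from RefSeq, for 9 of the 10 genes, and motifs were searched on both strands. Normalization, floor, fold threshold, probe set choice, prior trend and adjusted p were varied.

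The 10 genes and the lists were chosen with earlier results of these data known. Named list genes were up to 4 per list furthest from 0 past the floor, but others are named for their role or place, after their values were seen. A likeness to a gene was computed where its levels spanned at least 1 log2 unit.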

Additional observations from a re-analysis of the deposited data

Results flagged for a closer look

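Some genes differed in opposite directions, by at least 0.1 log2 units each way, in the 2 populations or with the 2 transductions, and with 1 array per group none of these differences was tested. Dmkn was at 0.64 for LT-HSC CreER against LT-HSC mock and at -0.12 for ST-HSC CreER against ST-HSC mock. For LT-HSC- against ST-HSC-derived cells, Dmkn was at -0.60 with mock and 0.16 with CreER, Mpo at -0.18 with mock and 0.22 with CreER, and Nkg7 at -0.20 with mock and 0.16 with CreER. All rest on the same 4 arrays, so the entries for Dmkn are not separate observations.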

How the results depend on the processing

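Quantile normalization, cyclic loess, median centring and the mean of probe sets moved no difference of the 10 genes by more than 0.07, and the 6 of 160 recomputed values that changed sign all belonged to differences of at most 0.02. The medians of the 10 genes stayed within 0.1 under those settings and without Mpo and the serine proteases, but without those 4 genes the median for ST-HSC CreER against ST-HSC mock was 0.07 in place of -0.02 and that for LT-HSC mock against ST-HSC mock -0.10 in place of -0.19, and with median centring that for LT-HSC CreER against ST-HSC CreER was 0.09 in place of 0.15. With median centring, and with the floor at the 75th percentile, 4 rather than 5 genes were at least 1.5-fold higher on LT-HSC CreER than on LT-HSC mock. With quantile or cyclic loess normalization, or that floor, 2 rather than 3 were at least 1.5-fold lower in LT-HSC- than in ST-HSC-derived cells with mock. The counts of all genes past 2-fold changed with the threshold and floor. For LT-HSC CreER against LT-HSC mock 89 genes became 417 at 1.5-fold, 12 at 3-fold and 53 with the stricter floor. In ST-HSC-derived cells 52 became 200 at 1.5-fold and 7 at 3-fold. For LT-HSC against ST-HSC, 319 with mock became 825, 143 and 169, and 198 with CreER became 697, 67 and 93, in the same order of settings. In limma the CreER count was 0 in all settings run. The population count of 653 was 1401 at an adjusted p of 0.1, 368 with cyclic loess and 186 with the stricter floor. The limma adjusted p of Fcnb for population ran from 0.0416, with no signal floor, to 0.114, and at the 0.1 threshold its main value of 0.0751 would pass. The causes of these changes were not tested beyond the number of genes each setting admits. No paired analysis was possible because no replicate number joins arrays across groups, though the additive fit does set CreER against mock within each population. The number of arrays limits every value, and leaving out an array leaves no residual degree of freedom.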
